A study of Mustela putorius furo with 2 samples.

Results

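The genes described here are those of the reelin pathway at the cell surface: the ligand RELN, its receptors VLDLR and LRP8, and the adaptor DAB1. They were taken by gene symbol from the feature table of both libraries, and each symbol occurred in 1 row. They make up 4 of 28156 features. Their identifiers in the files are ENSMPUG00000018264 (RELN), ENSMPUG00000005155 (VLDLR), ENSMPUG00000006310 (LRP8) and ENSMPUG00000007313 (DAB1).

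Reelin is a large secreted glycoprotein that directs the positioning of migrating neurons. In the developing cortex it comes from Cajal-Retzius cells under the pial surface, and in the mature cortex from subsets of inhibitory interneurons. It binds the lipoprotein receptors VLDLR and LRP8 (also called apolipoprotein E receptor 2), whose cytoplasmic tails carry DAB1. Receptor binding leads Src-family kinases such as FYN to phosphorylate DAB1, which then recruits CRK-family adaptors and is afterwards degraded through CUL5. Loss of RELN or DAB1, or of both receptors, disturbs cortical layering, and mutations of RELN and VLDLR cause forms of lissencephaly.

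The libraries are single-nucleus RNA-seq profiles of frozen somatosensory cortex of the ferret (Mustela putorius furo), made on the 10x Genomics droplet platform. Both carry the genotype label DCX knockout, although the series text speaks of a knockdown, and 1 library comes from each of the regions labelled upper band and deeper band of the cortex. DCX codes for doublecortin, which migrating neurons use to stabilise microtubules, and its loss can leave an extra band of neurons below the cortex. Strain, age, sex, the number of animals and the nature of the edited allele are not given by the labels used here, and wild-type tissue was not analysed here.

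With 1 library per band there was no test, and an effect of band, of preparation and of animal cannot be told apart. Total counts of unique molecular identifiers (UMIs) were 66253015 over 7151 barcodes in the library of the upper band and 78352064 over 9694 in that of the deeper band, with 24 barcode sequences occurring in both. After filtering, 6231 and 8062 nuclei remained, with medians of 7968 and 4880 UMIs. Paired values below give the upper band first, then the deeper band, and log2 ratios are deeper over upper. Levels are in CPM, the UMIs of a gene scaled to the total UMIs of the nuclei named. The targeted gene DCX stood at 78.6 and 77.2 CPM over all kept nuclei, a ratio of -0.03 (-0.09 to 0.04). All intervals are 95% intervals for counting error only: Poisson for CPM, Clopper-Pearson for shares and conditional binomial for ratios. They cover neither animals nor preparations, nor the spread between nuclei.

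Nuclei formed 27 clusters, and 24 of these were named from marker lists, with "-like" meaning resemblance to a type. The excitatory neuron-like class held 3158 and 3424 nuclei, the inhibitory neuron-like class 1021 and 763, the astrocyte-like class 388 and 806, and the oligodendrocyte-like class 859 and 2055. Clusters without a name held 5.94% and 7.5% of the nuclei. The 9 inhibitory markers summed to 5765 and 5516 CPM in the inhibitory class against 109.2 and 87.3 CPM in the excitatory class. Their sum was 1647 and 1540 CPM in oligodendrocyte-like, 1534 and 1468 CPM in oligodendrocyte precursor-like and 933.9 and 894.4 CPM in astrocyte-like nuclei. The SST-like inhibitory nuclei described below had 1566 and 1524 CPM, so this sum does not set them apart from oligodendrocyte-like nuclei. The vesicular GABA transporter gene SLC32A1 was almost undetected even in inhibitory nuclei, at 0.818 and 0.991 CPM. None of the 4 reelin pathway genes was used to form or to name clusters.

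RELN, the ligand, was concentrated in inhibitory neuron-like nuclei and was lower there in the deeper band. Inhibitory nuclei held 88.7% of all RELN UMIs of the upper-band library and 80.3% of those of the deeper-band library, while making up 16.4% and 9.46% of the nuclei. Their RELN levels of 1016 and 517.6 CPM gave a log2 ratio of -0.97 (-1.03 to -0.91), a level 1.96-fold higher in the upper band.

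A gene was called different between bands when it was past 1.5-fold with an interval clear of 0, among genes with at least 100 UMIs in the class. By this rule RELN was called lower in the deeper band in inhibitory nuclei, where 2.12% of 9987 genes were called lower, 2.45% higher and 4.58% in either direction. Only 0.31% of these genes had a more negative ratio than RELN. The call was lost with equal subcluster make-up (-0.53) and without the LAMP5-like subclusters (-0.39). LRP8 and DAB1 were not called there, and VLDLR had too few UMIs. In excitatory nuclei all 4 genes had enough UMIs and RELN alone was called, again lower, where 6.24% of 13861 genes were called lower, 3.4% higher and 9.64% in either direction. That call was also lost with equal subcluster make-up (-0.51). It rests on 24.3 and 14.6 CPM, below the 34.3 and 25.3 CPM of oligodendrocyte-like nuclei, and is not reported as a difference in expression. None of the members with enough UMIs was called in astrocyte-like nuclei (LRP8 and DAB1) or oligodendrocyte-like nuclei (RELN, VLDLR and DAB1), where 5.17% and 3.74% of genes were called in either direction. DAB1, the member with enough UMIs in oligodendrocyte precursor-like nuclei, was not called there, where 3.88% of genes were.

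Outside the inhibitory class, RELN stood at 24.3 and 14.6 CPM in excitatory nuclei, 38.2 and 26.6 CPM in astrocyte-like nuclei and 34.3 and 25.3 CPM in oligodendrocyte-like nuclei. Expressed against the inhibitory level of the same library, the oligodendrocyte-like level was 3.37% and 4.88% for RELN. The same share was 4.73% and 4.14% for GAD2 and 2.3% and 3.05% for GAD1, the GABA-synthesis genes that oligodendrocytes are taken to lack, 3.33% and 2.88% for LHX6 and 62.2% and 24.1% for SST. In excitatory nuclei the share was 2.39% and 2.82% for RELN, above the 1.26% and 1.07% for GAD2, the 0.531% and 0.447% for GAD1 and the 0.443% and 0.644% for LHX6, and below the 14.0% and 4.49% for SST. In astrocyte-like nuclei it was 3.75% and 5.15% for RELN, 3.73% and 4.29% for GAD2 and 2.38% and 0.549% for GAD1. After thinning to 1500 UMIs per nucleus, a RELN UMI was present in 3.88% and 1.99% of excitatory nuclei, no more often than in the 6.19% and 3.79% of oligodendrocyte-like nuclei. Oligodendrocyte precursor-like nuclei had 32.2 and 29.5 CPM, and microglia-like nuclei 36.7 and 35.9 CPM on 3 and 3 UMIs. Vascular and leptomeningeal-like nuclei had 62.8 CPM (42.9 to 88.6) on 32 UMIs and 25.6 CPM (9.41 to 55.8) on 6 UMIs. The intervals of astrocyte-like, precursor-like and microglia-like nuclei overlapped that of oligodendrocyte-like nuclei in both libraries. RELN outside the inhibitory class is therefore not reported as expression, and how much of it is free RNA was not tested. In excitatory nuclei the reference genes differ in what they show, and the small TLL1/STK32B subcluster reached 101.3 CPM of RELN on 21 UMIs in the deeper band, against 31.9 CPM on 5 UMIs in the upper band. The excitatory log2 ratio of -0.73 (-0.89 to -0.58) was -0.51 with equal subcluster make-up, short of the 1.5-fold limit.

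**Figure D1:**
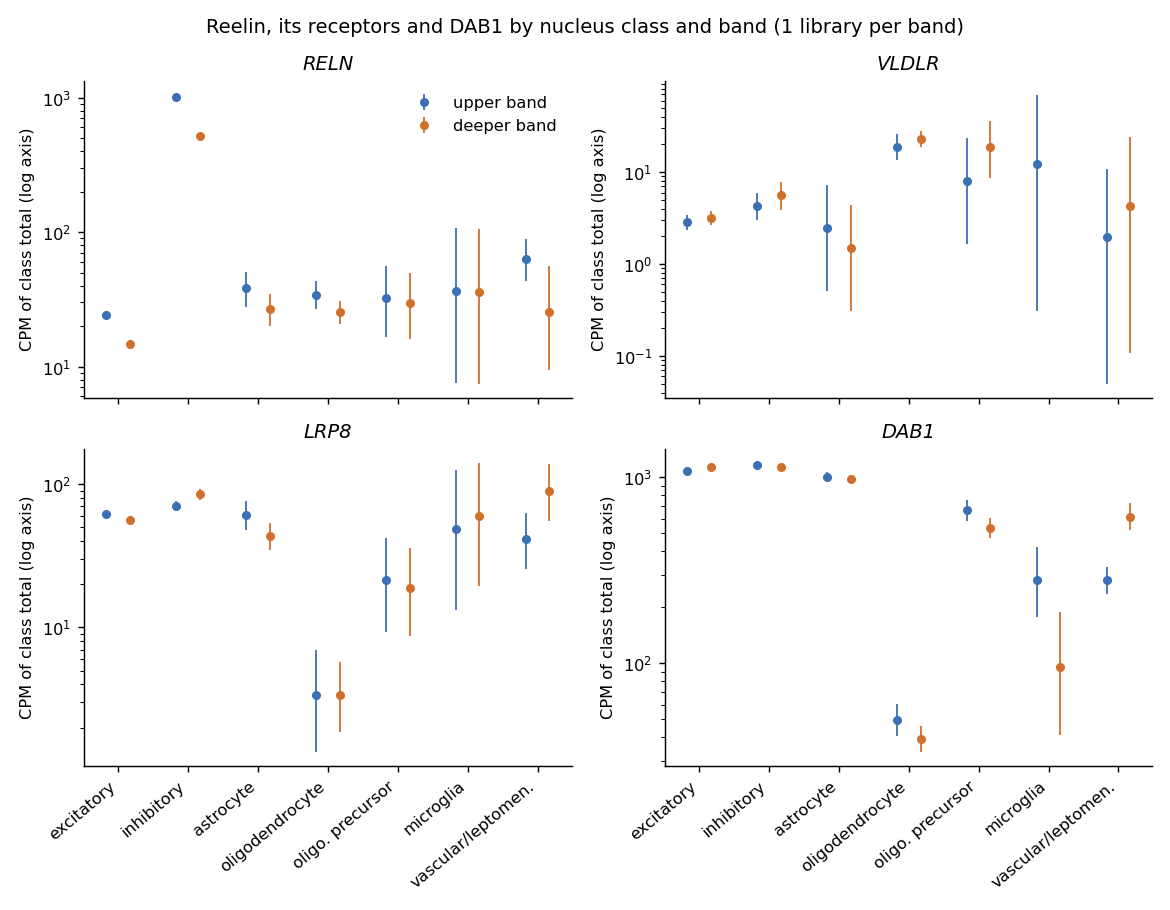
CPM of RELN, VLDLR, LRP8 and DAB1 (log axes) in 7 named classes of nuclei, with blue points for the upper-band library and orange points for the deeper-band library and bars for 95% Poisson intervals; a class without a UMI of the gene has no point. RELN stands at 1016 and 517.6 CPM in inhibitory nuclei and far lower elsewhere, VLDLR is highest among the well-filled classes in oligodendrocyte-like nuclei, and LRP8 and DAB1 are lowest there.

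In inhibitory nuclei a RELN UMI was present in 52.7% of upper-band and 38.9% of deeper-band nuclei, at median depths of 7633 and 7245 UMIs. The corresponding shares in oligodendrocyte-like nuclei were 7.45% and 4.72%, at median depths of 2204 and 1861. At a common depth of 1500 UMIs the inhibitory shares were 35.6% (32.7 to 38.7%) and 24.8% (21.7 to 28.0%), leaving out 16 and 8 shallower nuclei. The deeper band was thus lower both in RELN level and in the share of inhibitory nuclei with a RELN UMI.

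The inhibitory class was divided into 21 subclusters, of which 16 took a subtype name. PVALB itself was not analysed here, so the name PVALB-like rests on the other genes of that list. RELN was very unequal among the subtypes. LAMP5-like nuclei, which resemble neurogliaform cells, had 4980 and 1677 CPM. SST-like nuclei, which resemble somatostatin interneurons, had 1522 and 1216 CPM. VIP-like nuclei had 203.0 and 105.9 CPM, and PVALB-like nuclei, which resemble basket cells, had 22.7 and 19.2 CPM, a level no higher than in oligodendrocyte-like nuclei.

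In LAMP5-like nuclei the log2 ratio of RELN was -1.57 (-1.68 to -1.46) on 99 and 59 nuclei, and over the other settings it ran from -1.83 to -0.99. The NDNF/SEMA3C subcluster, described next, held 74 and 26 of these nuclei. RELN was called lower there, where 3.9% of 2798 genes were called lower. In VIP-like nuclei the ratio was -0.94 (-1.27 to -0.62), also called lower where 3.47% of 4439 genes were, but over the other settings tried it ran from -1.98 to -0.59. In PVALB-like nuclei it was -0.24 (-1.12 to 0.63), a difference not detectable at this depth.

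In SST-like nuclei the ratio was -0.33 (-0.42 to -0.23) and within the 1.5-fold limit, where 2.83% of 4955 genes were called lower. The value moved with which subclusters carried the name. Over the whole cluster led by CALB1 and CBLN4, from which most SST-like nuclei come, RELN was 1297 CPM in 350 upper-band nuclei and 1276 CPM in 205 deeper-band nuclei, a ratio of -0.02 (-0.11 to 0.06). In SST-like nuclei 3 of the 7 SST list genes had intervals above 0, namely SST (1170 and 2714 CPM), NPY (564.8 and 1219 CPM) and CORT (24.1 and 95.4 CPM), and 1, TRHDE, had an interval below 0. Their part in the RELN values was not tested.

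Single subclusters spread more widely than subtypes. In the upper band 7 of 21 subclusters had over 1000 CPM of RELN and 8 had under 100 CPM, and in the deeper band 5 and 9 did. The highest in both bands was the LAMP5-like subcluster led by NDNF and SEMA3C, with 6076 CPM (5892 to 6264) in 74 upper-band nuclei and 3054 CPM (2830 to 3291) in 26 deeper-band nuclei. Next came the SST-like subcluster led by GLI2 and SLC26A5, with 2788 and 2618 CPM, and the SST-like subcluster led by NIBAN1 and ETV1, with 2005 and 2119 CPM. In both of these SST-like subclusters the bands did not differ beyond counting error. Other SST-like subclusters were lower in the deeper band. The one led by FAM167A and STK32B had 1491 and 975.0 CPM, a ratio of -0.61 (-0.86 to -0.37). The one led by TRHR and CBLN4 had 690.2 and 450.0 CPM, a ratio of -0.62 (-0.87 to -0.37). The CHODL and HMCN2 subcluster, with NOS1, NPY and CORT among its leading genes like long-range projecting SST cells, had 3 RELN UMIs in 22 upper-band nuclei and 0 in 12 deeper-band nuclei.

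**Figure D2:**
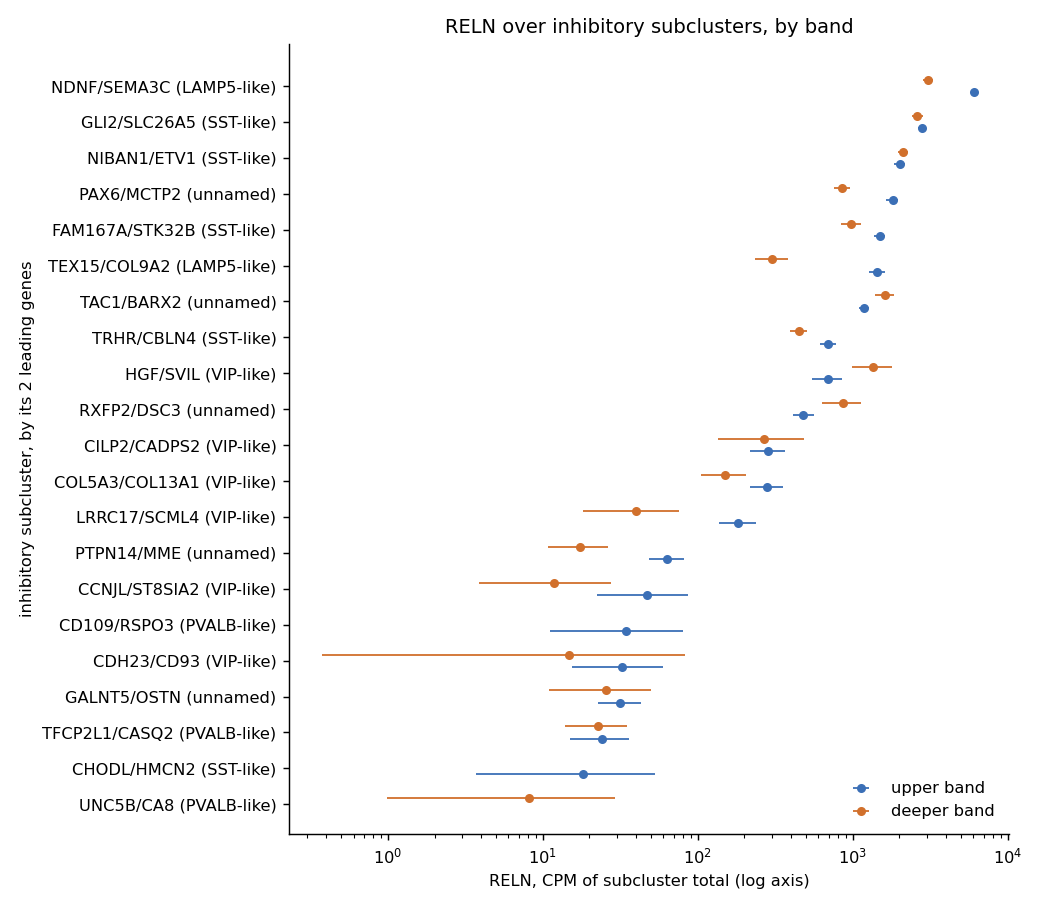
RELN level (CPM, log axis) in the 21 inhibitory subclusters, each named by its 2 leading genes with its subtype in brackets, in the upper band (blue) and deeper band (orange), with 95% Poisson intervals; a subcluster without a RELN UMI in a band has no point there. The NDNF/SEMA3C subcluster is highest at 6076 and 3054 CPM, and the 2 next SST-like subclusters lie at about the same level in both bands.

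Across the 21 subclusters the interval of the band ratio lay below 0 in 9, above 0 in 3 and held 0 in 9. The other LAMP5-like subcluster, led by TEX15 and COL9A2, had 1440 CPM in 25 nuclei and 301.6 CPM in 33 nuclei, a ratio of -2.26 (-2.66 to -1.87). An unnamed subcluster led by PAX6 and MCTP2, with markers of the caudal ganglionic eminence, had 1808 and 853.2 CPM, a ratio of -1.08 (-1.30 to -0.87). The subclusters in which RELN was higher in the deeper band held few deeper-band nuclei. They were led by TAC1 and BARX2 (1180 and 1609 CPM, 86 and 19 nuclei), RXFP2 and DSC3 (480.7 and 859.6 CPM, 42 and 8 nuclei) and HGF and SVIL (689.0 and 1355 CPM, 12 and 4 nuclei). In the HGF/SVIL subcluster 1 upper-band nucleus held 72 of the 80 upper-band RELN UMIs, so that level rests on this nucleus.

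By origin, subclusters with caudal ganglionic eminence (CGE) markers had 2270 and 688.3 CPM of RELN, a ratio of -1.72 (-1.82 to -1.63). Subclusters with medial ganglionic eminence (MGE) markers had 599.7 and 491.7 CPM, a ratio of -0.29 (-0.37 to -0.21). RELN was called lower in the CGE-like group, where 2.85% of 5785 genes were called lower, and was within the 1.5-fold limit in the MGE-like group, where 2.65% of 8642 genes were called lower. The difference between these ratios was not tested.

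RELN was also unequal among nuclei. The 10% of inhibitory nuclei with most RELN held 65.8% and 67.0% of the class's RELN UMIs. At least 50 RELN UMIs were found in 39 upper-band nuclei (3.82% of the class), of which 34 lay in the NDNF/SEMA3C subcluster, and in 4 deeper-band nuclei (0.524%), all 4 in that subcluster. Within it the median nucleus had 46.5 RELN UMIs in the upper band (quartiles 12.3 and 81.5, highest 430) and 12 in the deeper band (quartiles 3.25 and 30.8, highest 138). Median total UMIs per nucleus were close there, at 8008 and 8085. In the GLI2/SLC26A5 subcluster the median nucleus had 17.0 and 18.0 RELN UMIs.

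Both the make-up of the class and the RELN level within several subclusters differed between the libraries. Of the inhibitory nuclei, 7.25% (5.73 to 9.01%) and 3.41% (2.24 to 4.95%) lay in the NDNF/SEMA3C subcluster, which held 42.1% and 17.6% of all RELN UMIs of their libraries. SST-like nuclei held 24.5% and 42.7% of all RELN UMIs. Giving the upper-band levels the deeper-band make-up lowered RELN from 1016 to 770.1 CPM, a log2 ratio of -0.40. With the same subcluster make-up in both bands the levels were 893.1 and 619.9 CPM, a ratio of -0.53. Without the LAMP5-like subclusters the ratio of the class was -0.39 (-0.46 to -0.32). Neither of these last ratios is past 1.5-fold. The part of make-up and of level in the class difference was not tested.

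Markers of the LAMP5 list were compared within the NDNF/SEMA3C subcluster. Of the 7 LAMP5 list genes, 2 had a ratio with an interval above 0 (EYA4 and CXCL14) and 0 had one below 0. NDNF itself had 97.0 and 53.3 CPM, a ratio of -0.87 (-1.89 to 0.04), on 66 and 12 UMIs. Of the 5 CGE list genes, 1 had an interval above 0 (NFIX, 0.50) and 0 had one below 0, with ADARB2 at -0.01, PROX1 at 0.54 and NR2F2 at -0.20. RELN in the same nuclei had a ratio of -0.99 (-1.11 to -0.88). Of the other inhibitory lists, TRHDE (-1.03) and BTBD11 (-0.34) had intervals below 0 there, and NPY (0.82) and CCK (1.21) above 0. In all LAMP5-like nuclei 5 LAMP5 list genes had intervals above 0 and 1, NDNF (-1.54), below 0. In the TEX15/COL9A2 subcluster 4 LAMP5 list genes had intervals above 0 and 0 below. Of the CGE list genes there, 0 lay above 0 and 2, ADARB2 (-0.72) and NFIX (-0.69), below. Their part in the RELN values was not tested.

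Cajal-Retzius cells, the embryonic source of reelin, were not found. TP73 had 1 and 0 UMIs in all kept nuclei, LHX5 0 and 0, and LHX1 0 and 2. EBF3 had 48 and 48 UMIs, of which 4 and 2 were in inhibitory nuclei. No nucleus of 6231 and none of 8062 had UMIs of 2 or more of these 4 genes, which allows shares of up to 0.0481% and 0.0372% of nuclei with such UMIs.

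LRP8, the first of the receptors, was present in excitatory, inhibitory and astrocyte-like nuclei and near absent from oligodendrocyte-like nuclei. It stood at 61.9 and 56.4 CPM in excitatory nuclei, 70.1 and 85.0 CPM in inhibitory nuclei, 60.6 and 43.2 CPM in astrocyte-like nuclei and 3.38 and 3.40 CPM in oligodendrocyte-like nuclei. Thinned to 1500 UMIs, an LRP8 UMI was found in 8.63% and 7.76% of excitatory nuclei, 8.46% and 10.5% of inhibitory nuclei, 6.95% and 5.17% of astrocyte-like nuclei and 0.387% and 0.428% of oligodendrocyte-like nuclei. Oligodendrocyte precursor-like nuclei had 21.5 and 18.9 CPM on 8 and 9 UMIs, microglia-like nuclei 48.9 and 59.9 CPM on 4 and 5 UMIs, and vascular and leptomeningeal-like nuclei 41.2 and 89.7 CPM on 21 and 21 UMIs. The ratio in the vascular and leptomeningeal-like class was 1.12 (0.18 to 2.07), on too few UMIs for a call, where 33.7% of 1938 genes were called. The 8 excitatory markers summed to 531.7 and 1128 CPM in that class, and their part in its LRP8 values was not tested.

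The deeper band had more LRP8 in inhibitory nuclei, at a ratio of 0.28 (0.11 to 0.45), or 0.16 with equal make-up. It was highest in SST-like nuclei, at 107.3 and 150.8 CPM, a ratio of 0.49 (0.19 to 0.79). LAMP5-like nuclei had 69.6 and 88.7 CPM, PVALB-like nuclei 65.6 and 76.9 CPM, and VIP-like nuclei 38.0 and 42.4 CPM, with intervals of the ratio that held 0 in each. The GLI2/SLC26A5 subcluster, second in RELN, had the highest LRP8 of the 21 inhibitory subclusters in both bands, at 132.9 and 177.5 CPM. The interval of the LRP8 ratio held 0 in each of the 21 inhibitory subclusters. Over the whole CALB1/CBLN4 cluster LRP8 had 93.4 and 144.5 CPM, a ratio of 0.63 (0.36 to 0.90), and was called higher, where 3.77% of 5968 genes were.

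In excitatory nuclei the class ratio of LRP8 was -0.14 (-0.22 to -0.05), and its sign changed with equal make-up. Deep-layer-like nuclei had 74.7 and 90.3 CPM, a ratio of 0.27 (0.06 to 0.48), and upper-layer-like nuclei 52.2 and 56.0 CPM, a ratio of 0.10 (-0.06 to 0.26). Deep-layer-like nuclei, the higher in LRP8, made up 29.2% of upper-band and 7.51% of deeper-band excitatory nuclei, and upper-layer-like nuclei 21.0% and 47.6%. Subclusters without a layer name, 49.8% and 44.9% of the class, had 59.2 and 51.0 CPM, a ratio of -0.22 (-0.35 to -0.08). With equal subcluster make-up the class ratio was 0.02.

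Among excitatory subclusters LRP8 was highest in the deep-layer-like one led by GALNT5 and TNN, at 116.2 and 112.2 CPM, and the deep-layer-like ones led by PROM1 and NXPH2 (93.6 and 100.9 CPM) and by KIT and BMPR1B, with FOXP2 among its leading genes (80.6 and 89.3 CPM), were also above the class level, as was the small unnamed one led by TLL1 and STK32B (89.3 and 96.5 CPM on 14 and 20 UMIs).

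In astrocyte-like nuclei the LRP8 ratio was -0.49 (-0.95 to -0.02) on 73 and 86 UMIs, inside the 1.5-fold limit. A cluster led by CD44 and RASSF9 held 2 upper-band and 80 deeper-band nuclei of this class. In the main astrocyte-like cluster alone, led by RPE65 and SLCO1C1, LRP8 had 60.8 and 44.0 CPM, a ratio of -0.47 (-0.94 to 0.01).

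VLDLR, the second receptor, was sparse in every class, with 230 and 300 UMIs in all kept nuclei. Its level in oligodendrocyte-like nuclei was 18.8 (13.4 to 25.7) and 23.1 (18.7 to 28.2) CPM, above the 2.85 (2.33 to 3.45) and 3.20 (2.66 to 3.82) CPM of excitatory nuclei. Inhibitory nuclei had 4.32 and 5.61 CPM and astrocyte-like nuclei 2.49 and 1.51 CPM, on 3 and 3 UMIs. Both libraries thus had the same order, oligodendrocyte-like above inhibitory above excitatory, with intervals of the latter pair overlapping in the upper band. Oligodendrocyte precursor-like nuclei had 8.04 and 18.9 CPM on 3 and 9 UMIs, microglia-like nuclei 1 and 0 UMIs and vascular and leptomeningeal-like nuclei 1 and 1 UMIs, too few to place.

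Both oligodendrocyte-like clusters had VLDLR. The one led by PLLP and NEK2 had 18.2 and 26.9 CPM, and the one led by LGSN and OPALIN 20.9 and 17.0 CPM. An unnamed cluster led by EGFLAM and ABCA9, with ENPP6 of newly formed oligodendrocytes, had 32.3 and 22.6 CPM on 6 and 24 UMIs. All unnamed clusters together had 18.98 and 19.05 CPM on 41 and 37 UMIs. Of these UMIs, 23 and 10 lay in the cluster led by ITGAL and CYTH4. A further 12 and 3 lay in the cluster led by IZUMO1R and SLC13A5. After thinning, 2.58% and 3.54% of oligodendrocyte-like nuclei had a VLDLR UMI, against 0.414% and 0.410% of excitatory nuclei and 0.398% and 0.927% of inhibitory nuclei, on 4 and 7 nuclei. Oligodendrocyte-like nuclei were thus highest of these named classes at equal depth too, while inhibitory and excitatory nuclei could not be ordered. The unnamed clusters together had a VLDLR UMI in 3.3% and 3.2% of thinned nuclei, on 12 and 18 nuclei, so they were not set apart from oligodendrocyte-like nuclei.

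VLDLR showed no band difference clear of counting error in any named class. The ratio was 0.29 (-0.26 to 0.87) in oligodendrocyte-like nuclei, 0.17 (-0.22 to 0.56) in excitatory nuclei and 0.38 (-0.34 to 1.09) in inhibitory nuclei. Over all kept nuclei it was 0.36 (0.11 to 0.61). Oligodendrocyte-like nuclei made up 13.8% and 25.5% of the nuclei of the libraries and held 17.0% and 31.7% of the VLDLR UMIs.

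DAB1, the intracellular adaptor, was at nearly the same level in excitatory, inhibitory and astrocyte-like nuclei, and differed little between bands there. Excitatory nuclei had 1083 CPM (1072 to 1094) and 1139 CPM (1129 to 1150), a ratio of 0.07 (0.05 to 0.09). Inhibitory nuclei had 1169 and 1131 CPM, a ratio of -0.05 (-0.09 to -0.003), and astrocyte-like nuclei 1011 and 983.3 CPM, a ratio of -0.04 (-0.14 to 0.06). Oligodendrocyte precursor-like nuclei had 664.9 and 534.3 CPM, a ratio of -0.32 (-0.57 to -0.06), and oligodendrocyte-like nuclei 49.7 and 39.3 CPM. DAB1 was thus far lower in oligodendrocyte-like nuclei than in their precursors in both bands. Microglia-like nuclei had 281.1 and 95.8 CPM on 23 and 8 UMIs.

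A DAB1 UMI was found, after thinning, in 73.0% and 77.4% of excitatory nuclei, 64.8% and 70.9% of inhibitory nuclei, 74.6% and 69.9% of astrocyte-like nuclei, 52.5% and 48.7% of oligodendrocyte precursor-like nuclei and 7.22% and 5.19% of oligodendrocyte-like nuclei. The small inhibitory ratio changed sign with the setting, from -0.10 without doublet removal to 0.11 after thinning. In vascular and leptomeningeal-like nuclei DAB1 had 280.6 and 615.2 CPM and was called higher in the deeper band, but there 33.7% of 1938 genes were called. The 8 excitatory markers summed to 531.7 and 1128 CPM in the same nuclei, with 0 and 1 of them at 0, and their part in the DAB1 values was not tested.

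Within excitatory nuclei DAB1 spanned 10.9-fold over 18 subclusters in the upper band and 8.59-fold in the deeper band. The deep-layer-like subcluster led by KCNG4 and CPT1A was highest, at 2375 CPM (2318 to 2433) in 138 nuclei and 2404 CPM (2251 to 2563) in 21 nuclei. The unnamed subcluster led by TLL1 and STK32B was lowest, at 216.9 CPM (150.2 to 303.2) in 15 nuclei and 279.7 CPM (212.4 to 361.6) in 19 nuclei. The order of the ends was therefore the same in both libraries.

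**Figure D3:**
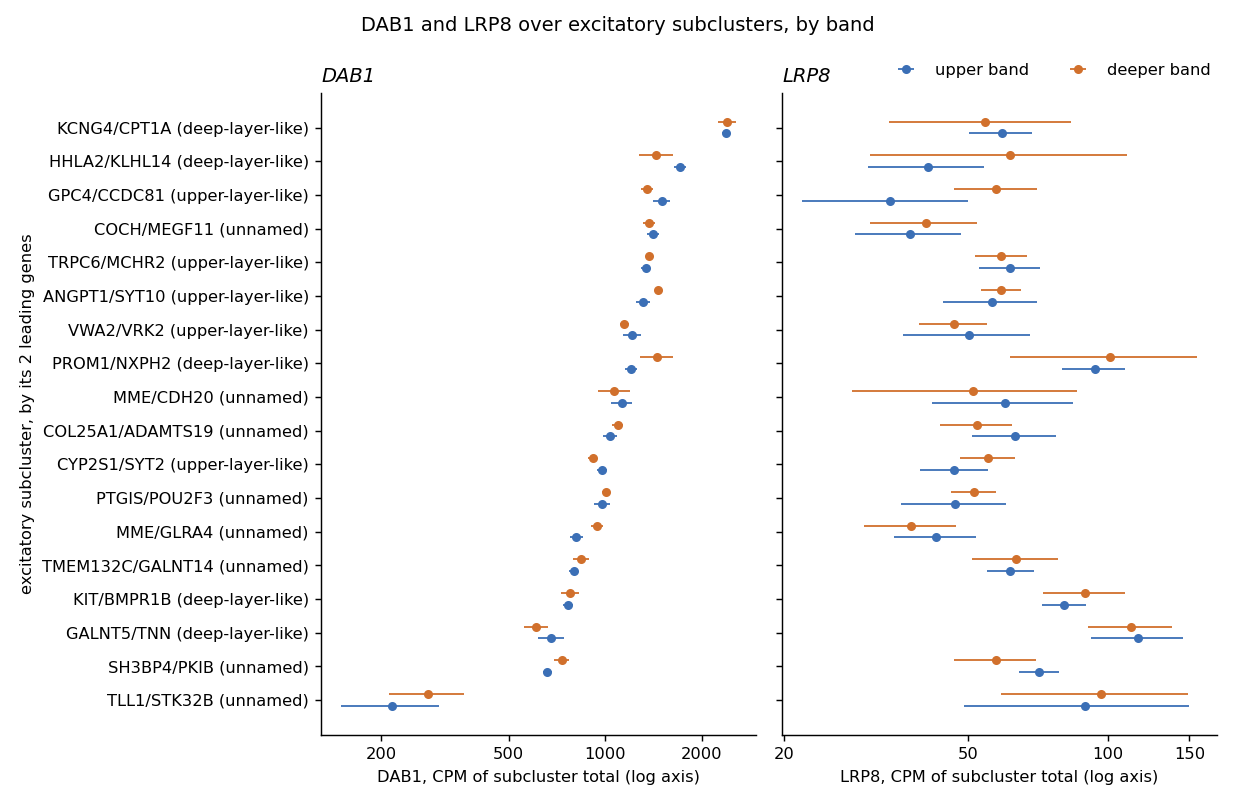
DAB1 (left) and LRP8 (right) levels (CPM, log axes) in the 18 excitatory subclusters, ordered by DAB1 in the upper band and named by 2 leading genes with the layer name in brackets; blue is the upper band, orange the deeper band, and bars are 95% Poisson intervals. KCNG4/CPT1A has the most DAB1 (2375 and 2404 CPM) and TLL1/STK32B the least (216.9 and 279.7 CPM), while LRP8 is highest in GALNT5/TNN (116.2 and 112.2 CPM).

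Deep-layer-like nuclei as a group had less DAB1 in the deeper band, 1368 and 1052 CPM, a ratio of -0.38 (-0.44 to -0.32), while upper-layer-like nuclei had 1212 and 1271 CPM. The KCNG4/CPT1A subcluster gave 6563 of the 14323 DAB1 UMIs of upper-band deep-layer-like nuclei and 928 of the 2833 of deeper-band ones. Within the 5 deep-layer-like subclusters the ratios ran from -0.25 in the one led by HHLA2 and KLHL14 to 0.27 in the one led by PROM1 and NXPH2. Over all 18 excitatory subclusters the interval lay above 0 in 4, below 0 in 3 and held 0 in 11.

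Within inhibitory nuclei DAB1 was lower in SST-like nuclei than in the other named subtypes. SST-like nuclei had 241.2 and 322.6 CPM of DAB1, a ratio of 0.42 (0.22 to 0.62), against 1277 and 1214 CPM in PVALB-like, 1895 and 1836 CPM in VIP-like and 2165 and 2161 CPM in LAMP5-like nuclei. The SST-like NIBAN1/ETV1 subcluster had 48.9 and 36.3 CPM and the unnamed TAC1/BARX2 subcluster 54.6 and 45.1 CPM, close to the oligodendrocyte-like level. The SST-like GLI2/SLC26A5 subcluster, with more RELN than either, had 108.5 and 128.7 CPM. The CHODL/HMCN2 subcluster, nearly without RELN, had 451.0 and 580.7 CPM of DAB1.

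Other subclusters with much RELN had high DAB1. The NDNF/SEMA3C subcluster, highest in RELN, had 2234 and 2246 CPM of DAB1, a ratio of 0.01 (-0.14 to 0.15), beside its RELN ratio of -0.99. The TEX15/COL9A2 subcluster had 1943 and 2076 CPM of DAB1. The unnamed PAX6/MCTP2 subcluster (RELN 1808 and 853.2 CPM) had 1937 and 1362 CPM of DAB1. The VIP-like HGF/SVIL subcluster, of 12 and 4 nuclei, had 1791 and 2047 CPM of DAB1. Its RELN (689.0 and 1355 CPM) lay mostly in 1 nucleus in the upper band. High RELN thus occurred with both low and high DAB1.

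**Figure D4:**
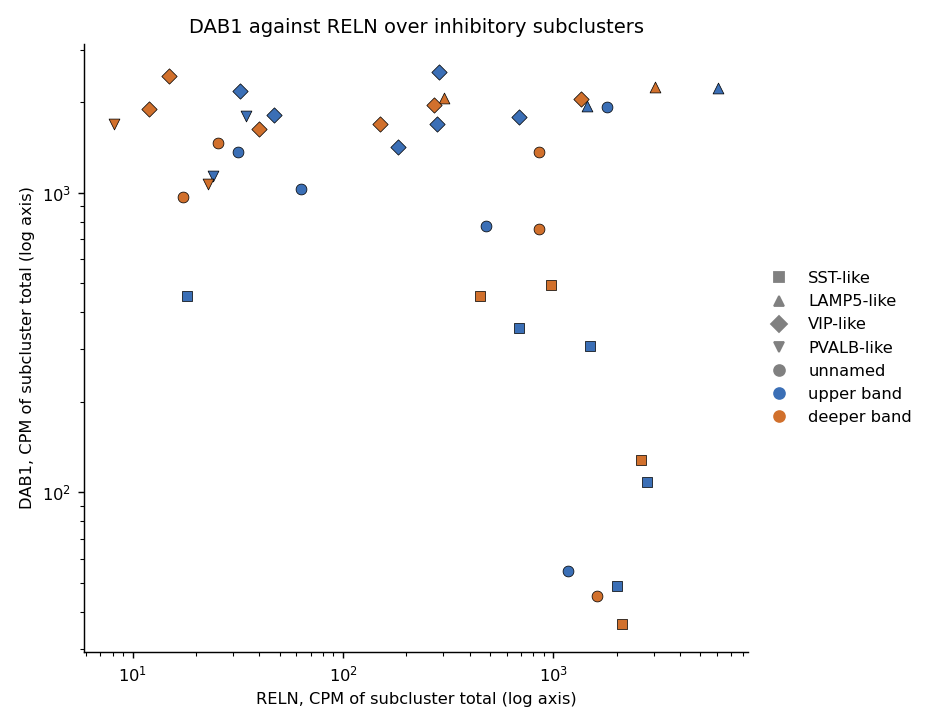
DAB1 against RELN (CPM, both axes log) in the inhibitory subclusters of the upper band (blue) and deeper band (orange), with marker shapes for subtype names; points with 0 RELN UMIs are left out. Squares (SST-like) run to the lower right, with 48.9 and 36.3 CPM of DAB1 at 2005 and 2119 CPM of RELN, and triangles (LAMP5-like) stay at about 2000 CPM of DAB1.

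The genes were also compared nucleus by nucleus, at a depth of 1500 UMIs. Of SST-like nuclei with a RELN UMI, 16.2% (10.6 to 23.3%) and 6.6% (2.7 to 13.1%) had a DAB1 UMI. Of SST-like nuclei without one, 39.5% (28.8 to 51.0%) and 57.1% (45.4 to 68.4%) did. In LAMP5-like nuclei a DAB1 UMI was present in 89.2% and 87.0% of nuclei with a RELN UMI and 100% and 97.2% of those without, on 74 and 23 against 25 and 36 nuclei. In SST-like and LAMP5-like nuclei the shares were lower with a RELN UMI in both bands. Intervals were apart in SST-like nuclei and overlapping in LAMP5-like nuclei. VIP-like nuclei had shares of 82.4% and 100% with a RELN UMI, on 17 and 13 nuclei, and 88.8% and 91.8% without. The order was thus reversed there in the deeper band. Only 3 and 2 PVALB-like nuclei had a RELN UMI, of which 3 and 1 had a DAB1 UMI, against 83.8% and 82.3% without. Over the whole inhibitory class the shares were 42.5% and 34.8% with a RELN UMI and 77.1% and 82.7% without. Both the class and the SST-like group pool subclusters that differ in RELN and in DAB1. Shares within single subclusters were not compared, so these values do not separate nuclei of one subcluster. The part of pooling in these shares was not tested.

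The other genes of the pathway were read from a list of 53, of which 50 are in the feature table. In excitatory nuclei 47 had at least 100 UMIs, 2 were called higher and 2 lower in the deeper band, where 3.4% and 6.24% of all genes were, and 43 were not called, and the list's median ratio was 0.08 beside -0.02 over all genes tested. ADAMTS3, a protease that cleaves and inactivates reelin, had 115.0 and 62.1 CPM, a ratio of -0.89 (-0.96 to -0.82). EFNB1, an ephrin ligand of the B class, was higher, with 5.72 and 8.94 CPM, and CFL1, the actin-severing cofilin, had 1.11 and 2.59 CPM on 41 and 98 UMIs.

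In inhibitory nuclei 40 list genes had enough UMIs, 2 were called higher and 1 lower, where 2.45% and 2.12% of all genes were, and the median was 0.02 beside -0.01 over all genes. APLP1, a relative of the amyloid precursor, had 24.3 and 42.4 CPM, and MYLIP, a ubiquitin ligase for receptors of this family, 7.71 and 12.4 CPM. LRP2, another receptor of the family, had 14.1 and 7.27 CPM. In astrocyte-like nuclei 28 had enough UMIs, 2 were called higher and 1 lower where 2.99% and 2.18% of 5278 genes were, with a median of -0.06 beside 0.00. APOE, a lipoprotein ligand of the same receptors, had 242.2 and 617.4 CPM, a ratio of 1.35 (1.17 to 1.54). CLU, clusterin, had 293.6 and 478.6 CPM, a ratio of 0.71 (0.53 to 0.89), and DAB2IP, a protein that binds DAB1 and DAB2, 64.7 and 33.7 CPM.

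Of the signalling partners of DAB1, FYN was highest in oligodendrocyte precursor-like nuclei, at 659.5 and 730.0 CPM, and had 409.2 and 429.3 CPM in inhibitory nuclei. CRK and CRKL were highest in microglia-like nuclei, on 14 and 17 and on 8 and 9 UMIs, at 171.1 and 203.6 and at 97.8 and 107.8 CPM. CUL5 was highest in microglia-like nuclei of the upper band, at 268.9 CPM on 22 UMIs, and in oligodendrocyte-like nuclei of the deeper band, at 175.3 CPM. PAFAH1B1, whose protein LIS1 binds phosphorylated-DAB1 complexes and which is itself a lissencephaly gene, had 323.6 and 305.9 CPM in oligodendrocyte-like nuclei, its highest class in the upper band.

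The genes whose levels across types most resembled each member were found by the Pearson correlation of log2(CPM + 1) over 41 profiles (named classes and subclusters with at least 50 nuclei, both libraries summed) among 7332 genes with at least 1000 UMIs. These profiles share libraries, and classes contain their subclusters, so the values are descriptions. RELN was most like THSD7B (0.82), GRIK1 (0.78) and GLCE (0.77). LRP8 was most like CLIP1 (0.80), NAV2 (0.75) and SLC7A8 (0.74), and DAB1 most like DGKB (0.78), SH3RF3 (0.76) and SHANK2 (0.71). VLDLR was most like CEP97 (0.68), FTO (0.65) and SNX1 (0.65). Between members the coefficients were -0.34 for RELN and DAB1, 0.33 for RELN and LRP8, and -0.57 for VLDLR and LRP8. The remaining pairs were near 0, with 0.084 for RELN and VLDLR, -0.002 for VLDLR and DAB1, and 0.024 for LRP8 and DAB1.

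**Figure D5:**
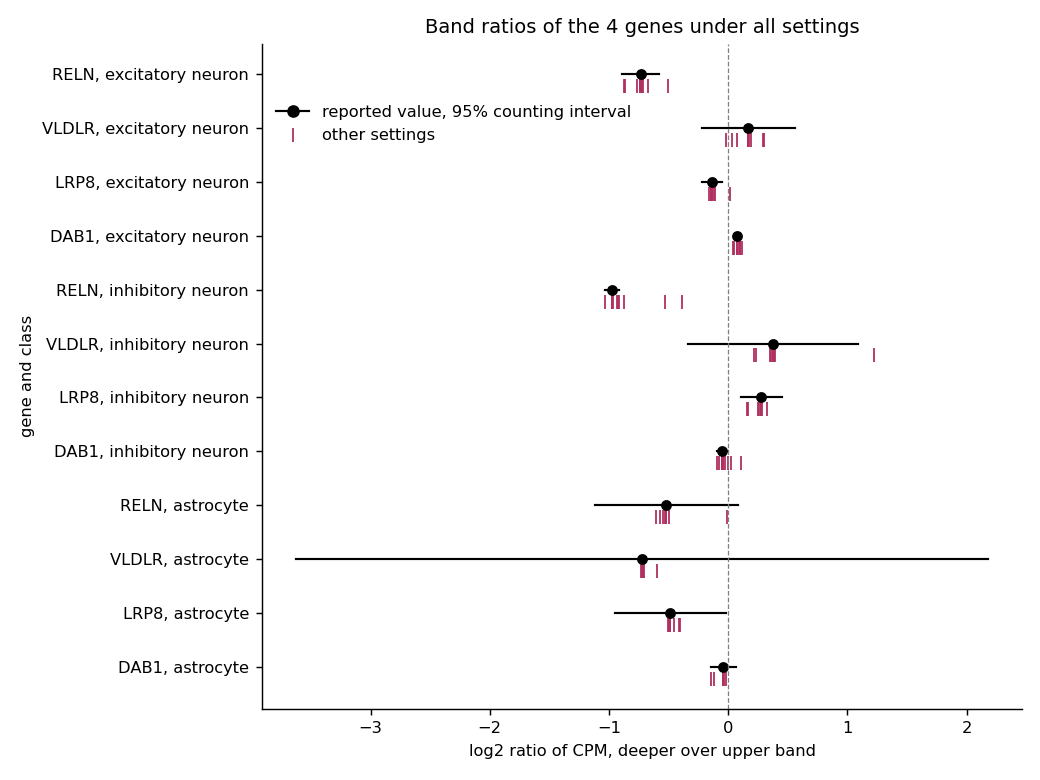
Band ratios on the log2 scale (deeper over upper, from CPM) of the 4 genes in 3 classes, with black points and bars for the reported value and its 95% counting interval and red ticks for the other settings tried. RELN in inhibitory nuclei runs from -1.03 to -0.39 and is below 0 in every setting drawn, while DAB1 in inhibitory nuclei and LRP8 in excitatory nuclei have ticks on both sides of 0.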

How the data were processed

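The authors deposited, per the file headers, a matrix of whole-number UMI counts per gene and barcode for each library, without normalization. The matrix header carries software version 3.1.0, and the submitters' processing notes name Cell Ranger 6.2.1 and 2.1.1 with no roles. The aligner, genome build, annotation and treatment of intronic reads are not given in the sources used here. No sequence or coordinate is printed, since no genome of the files' build was used here.

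Nuclei with at least 500 genes were kept, and doublets called by Scrublet (scanpy 1.11.5, expected rate 0.8% per 1000 nuclei) were removed: 860 (12.1%) and 1546 (16.1%). No correction for free RNA was made. Both libraries were clustered together on 2000 variable genes, without the 4 members, with 30 components, 15 neighbours and Leiden resolution 1 (igraph 0.11.9), and both neuron classes again. A cluster took the list with most raised markers (at least 1/3 of the highest cluster's CPM, in at least 10% of nuclei). It stayed unnamed with fewer than 3, with at least 5 markers of another class at 2-fold, when its top 10 genes held more of another class's markers than its own, or with shallow nuclei and no own marker there. This scoring was chosen with the clusters in view, including that markers of inhibitory subtypes count as inhibitory. NDNF and CALB2 stand in both a Cajal-Retzius and an inhibitory list.

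UMIs were summed per library and type (numpy 2.4.6, scipy 1.17.1). Counts were also simulated by Poisson draws, the counting model behind the intervals. That check shows the arithmetic of the rule only, since the draws leave out the spread between nuclei, animals and preparations. In these draws, 95.5% of intervals held the true ratio in inhibitory nuclei (9983 genes) and 0.501% of unchanged genes were called. Of 1.5-fold changes 50.0% were recovered, and of 2-fold changes 100%.

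The named genes are the 4 members, the list genes called (at most 3 per direction and class), PAFAH1B1, FYN, CRK, CRKL, CUL5 and APOE, the 3 most similar genes per member, and markers on which a result turns. The values of 1 called list gene are not reported here. The members and lists were chosen with earlier results of these data known. The alternatives changed scaling, gene minimum, doublet removal, clustering, depth and make-up.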

Additional observations from a re-analysis of the deposited data

Results flagged for a closer look

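DAB1 and LRP8 had band ratios of opposite sign in different classes, each with a counting interval clear of 0. Each class has 1 library per band, so the difference between classes was not tested.

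DAB1 was higher in the deeper band in excitatory nuclei (log2 ratio 0.07) and lower in inhibitory nuclei (-0.05), which are 0.12 apart. It was lower in oligodendrocyte precursor-like nuclei (-0.32), 0.39 apart from excitatory nuclei. LRP8 was higher in the deeper band in inhibitory nuclei (0.28) and lower in excitatory nuclei (-0.14), 0.41 apart, and lower in astrocyte-like nuclei (-0.49), 0.76 apart. With equal subcluster make-up the inhibitory DAB1 ratio was 0.001 and the excitatory LRP8 ratio 0.02, so these opposite signs were not kept there.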

How the results depend on the processing

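No paired analysis was possible because each band had 1 library, and leaving out a library leaves nothing to compare. RELN in inhibitory nuclei (-0.97) stayed below 0 under all settings tried. It was -0.88 as the mean of each nucleus's CPM, -1.03 without doublet removal, -0.91 with each library clustered on its own, -0.53 with equal make-up and, chosen after seeing the data, -0.39 without LAMP5-like subclusters. RELN in excitatory nuclei (-0.73) was -0.51 with equal make-up. LRP8 in excitatory nuclei (-0.14) turned to 0.018 with equal make-up. DAB1 in inhibitory nuclei (-0.05) was -0.10 without doublet removal and turned to 0.027 with the mean per nucleus, 0.11 after thinning and 0.001 with equal make-up. DAB1 in excitatory nuclei (0.07) was 0.095 with median-of-ratios scaling, 0.096 after thinning, 0.115 with the mean per nucleus, 0.048 with 2 times as many doublets removed and 0.037 with equal make-up. Thinning gave -0.14 for DAB1 in astrocyte-like nuclei and 1.22 for VLDLR in inhibitory nuclei, on 4 and 7 UMIs. List genes called in inhibitory nuclei (3) numbered 5 at a minimum of 50 UMIs or without doublet removal and 1 at a minimum of 200 UMIs or after thinning, and those in excitatory nuclei (4) numbered 2 after thinning. The cause of these changes was not tested. Beside these, 114 recomputed values of the main comparisons stayed within the counting interval of the reported value or, for counts, within 1.5 times it. Of settings chosen after seeing the data, the NDNF/SEMA3C subcluster alone gave -0.99 for LAMP5-like RELN and the whole CALB1/CBLN4 cluster -0.02 for SST-like RELN. Depth limits VLDLR most, with 3 and 3 UMIs in astrocyte-like nuclei.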
